A study of Mus musculus with 24 samples.

Results

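The data described here are bulk RNA-seq libraries of LSKs, the Lin-Sca-1+c-Kit+ fraction of mouse bone marrow that holds the stem cells and earliest progenitors, from 6 mice with chronic phase chronic myelogenous leukemia (CP CML) and 6 wild-type (WT) mice. These 12 of the 24 libraries of the series were chosen by the genotype in their labels. The CP CML mice were miR-142+/+ and BCR-ABL+, and the study's methods describe them as B6 mice in which the SCL promoter, active in stem cells and early progenitors, drives BCR-ABL once tetracycline is withdrawn, here for 2 weeks. The WT mice were miR-142+/+ without BCR-ABL. Each group held 3 females and 3 males, 1 library per mouse, although the methods give n = 5 per group. Ages, and whether the WT mice had received tetracycline, are not given in the sources used here. The other 12 libraries, from 6 miR-142 KO (miR-142-/-) and 6 BC CML (miR-142-/- BCR-ABL+, blast crisis) mice, entered the fit of the spread and are used below only for the BCR-ABL effect without miR-142.

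BCR-ABL is a constitutively active tyrosine kinase that signals through STAT5, RAS and PI3K, and in this model it starts chronic phase disease from the stem cell compartment. LSKs include long-term stem cells, multipotent progenitors and lymphoid-primed progenitors, and they give rise to granulocytes, monocytes, mast cells, basophils, red cells, megakaryocytes and lymphocytes. The comparison of CP CML with WT LSKs asks which transcripts differ in that compartment when BCR-ABL is on and miR-142 is present.

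Values are CPM, read counts relative to the size of each library, scaled by TMM, a normalization that assumes that most genes do not change. The WT libraries summed to 21665505 to 23823500 counts and the CP CML libraries to 16267965 to 24462482. A gene was called when its Benjamini-Hochberg adjusted p in edgeR's quasi-likelihood test was below 0.05, and fold changes are CP CML over WT, on the log2 scale with their SE. In bulk samples, fewer cells of a type and less RNA per cell cannot be told apart. Kit, the stem cell factor receptor used in the sort, was at 784 to 1219.5 CPM in WT and 974 to 1239.9 CPM in CP CML LSKs. Ly6a, which encodes Sca-1, was at 30.7 to 49.5 and 36.6 to 69.9 CPM, with a log2 fold change of 0.32 ± 0.21 (edgeR adjusted p = 0.234). Of the lineage genes that the gate should remove, Ly6g, Cd3e and Cd8a had at most 11 counts in any of the 12 libraries and were not tested. Itgam, which encodes CD11b, was not absent, at 54.2 to 115 CPM in WT and 66.8 to 81.2 CPM in CP CML LSKs.

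Some libraries stood apart from their group. WT replicates 1 and 4 held less RNA of the basophil genes Mcpt8 and Prss34 than the other WT libraries. They differed in other lists too. Their mitosis genes summed to 5699 and 5288 CPM, against 7340 to 7579 CPM in the other WT libraries. Long-term stem cell genes were at 3377 and 3835 CPM, against 2610 to 2980 CPM. Interferon-stimulated genes were at 3096 and 2743 CPM, against 2191 to 2666 CPM. WT replicate 3 and CP CML replicates 4, 5 and 6 held the most RNA of marrow macrophage genes, whose summed level ran from 121 to 1919 CPM in WT and from 151 to 852 CPM in CP CML LSKs. The main counts were therefore also taken without WT replicates 1 and 4, and without WT replicate 3 and CP CML replicates 4 to 6. The latter 3 are all of the CP CML males, so that fit compares 3 CP CML females with 5 WT mice of both sexes, and a call lost in it cannot be told apart from an effect of sex or of the smaller number. The transgene has no row of its own in the files, so the labels could not be checked on it. Of the mouse genes of the fusion, Bcr, at 126 to 181 CPM in WT and 125 to 146 CPM in CP CML LSKs, had a log2 fold change of -0.28 ± 0.07, adjusted p = 0.00368 in edgeR's test, which was lost (-0.17, adjusted p = 0.16) without the 4 macrophage-rich libraries, and Abl1 was not called (-0.09 ± 0.05, adjusted p = 0.2). Tal1, whose promoter drives the transgene, and Mir142 were not called either, with log2 fold changes of -0.08 ± 0.09 and 0.10 ± 0.19.

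Of 13520 genes tested, 6143 (45.4%) were called. Of all tested genes, 3045 (22.5%) were higher and 3098 (22.9%) lower in CP CML LSKs, and their median log2 fold change was -0.02. A change of at least 2-fold, a log2 fold change of 1 or more, was called for 930 genes (6.88%), of which 548 rose (4.05% of those tested) and 382 fell (2.83%). The groups of 6 did not overlap for 2949 genes (21.8%), of which 1614 (11.9%) were higher and 1335 (9.87%) lower in CP CML LSKs. With so many genes called, a list of genes is described below by its count beside these shares. Under upper quartile normalization, 6344 genes were called and 41.6% of them were higher, against 49.6% under TMM. Within each sex, 3930 genes were called in females and 3484 in males. The difference between the sexes was called for 0 genes by the quasi-likelihood test (546 at an unadjusted p under 0.05), 67 by the likelihood ratio test and 64 by DESeq2, and the quasi-likelihood test called 71 without WT replicate 2 and 3 without WT replicate 1.

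The largest rises were in transcripts of mast cells, the tissue-resident granulocytes that store chymases, tryptases, histamine and heparin. Of the 22 tested genes of the mast cell and basophil list, 20 rose and none fell (18 to 20 rose when any 1 library was left out), their median log2 fold change being 2.36, and 15 did not overlap between the groups. Their summed level was 819 to 1595 CPM in WT and 3944 to 6878 CPM in CP CML LSKs. Cma1, which encodes the mast cell chymase, had a lowest, median and highest value of 0.586, 2.17 and 4.35 CPM in WT LSKs. In CP CML LSKs the same values were 353, 540.2 and 819 CPM. Every CP CML library was thus far above every WT library, and the fitted rise was 243-fold (log2 7.92 ± 0.47, adjusted p = 7.13e-11, edgeR).

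The tryptases followed the same pattern. Tpsb2, a granule tryptase, was at 0.586, 1.75 and 4.8 CPM in WT and at 404, 608 and 1054 CPM in CP CML LSKs (lowest, median and highest), a log2 fold change of 8.12 ± 0.58, adjusted p = 7.26e-10 by edgeR. Tpsab1, the neighbouring tryptase, rose from 0.063 ± 0.0768 to 32.1 ± 19 CPM (mean ± SD, n = 6), and its log2 fold change of 8.86 became 9.66 without WT replicate 1, the WT library with the most, at 0.205 CPM. Mcpt4, a chymase of connective tissue mast cells, rose from 0.628, 1.33 and 2.13 CPM in WT to 148, 237 and 293 CPM in CP CML LSKs (lowest, median and highest). For both Tpsb2 and Mcpt4 the lowest CP CML library was far above the highest WT library.

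Genes shared by mast cell progenitors and mature mast cells were already present in WT LSKs. Cpa3, the mast cell carboxypeptidase that is also expressed by progenitors, was at 44.7, 83.3 and 109 CPM in WT and at 723, 1133 and 1426 CPM in CP CML LSKs, a log2 fold change of 3.84 ± 0.32, adjusted p = 5.19e-09 by edgeR. Il1rl1, the receptor for IL-33, was at 9.3, 20.7 and 33.6 CPM in WT and at 299, 541 and 748 CPM in CP CML LSKs (26.6-fold). Fcer1a, the IgE-binding chain of the high-affinity receptor, was at 0.431, 11.3 and 19.9 and 97.1, 164 and 239 CPM in the same order, and its lowest WT value belonged to WT replicate 4. Gzmb, the serine protease granzyme B, rose by 5.56 ± 0.44, Hdc, which makes histamine, by 2.53 ± 0.34 and Alox5, the first enzyme of leukotriene synthesis, by 3.10 ± 0.42 on the log2 scale. The transcription factor genes Mitf (1.74 ± 0.15) and Gata2 (0.65 ± 0.12), both needed for mast cells, rose less.

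Of the list of mast cell and basophil genes, the proteases Mcpt8 and Prss34 did not pass the test. Mcpt8, a protease of basophils, was at 11.4, 104 and 158 CPM in WT and at 93.7, 124 and 173 CPM in CP CML LSKs, with a log2 fold change of 0.52 ± 0.61, adjusted p = 0.508 by edgeR. Prss34, another basophil protease, was at 7.06, 144 and 262 and 51, 115 and 143 CPM, with a log2 fold change of -0.33 ± 0.83, adjusted p = 0.77. For both genes the groups overlapped, and the low WT values were those of replicates 1 and 4. Of the eosinophil list, 0 of 10 genes rose and 0 fell; Prg2, the major basic protein, was at 30.8 to 1199 CPM in WT and 192 to 941 CPM in CP CML LSKs. Without WT replicates 1 and 4, 17 mast cell and basophil genes rose, and without the macrophage-rich libraries 18 did.

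**Figure D1:**
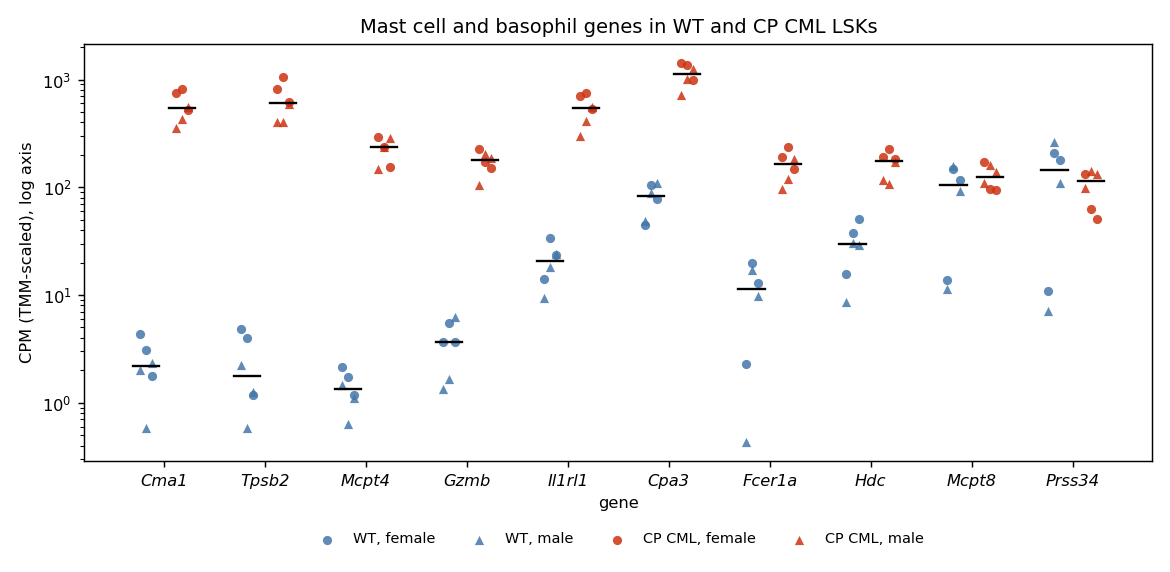
Level of 10 mast cell and basophil genes in each library, in TMM-scaled CPM on a log axis. Blue marks are WT and red marks CP CML LSKs, circles are females, triangles males and bars the median of 6. Cma1, Tpsb2 and Mcpt4 stood below 5 CPM in every WT library and above 100 CPM in every CP CML library, whereas Mcpt8 and Prss34 overlapped, with 2 low WT libraries.

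The leading genes by fitted fold change were largely of mast cells. Of the 15 genes that led the rises, Mcpt1, Mcpt2, Tpsab1, Tpsb2, Cma1, Mcpt4 and Mcpt-ps1 are mast cell proteases or a protease pseudogene, Tph1 makes serotonin in mast cells, and Mrgprb2 is the mast cell receptor for cationic peptides. Mcpt-ps1 had a log2 fold change of 6.76 ± 0.56, which was 10.67 without WT replicate 1. Mcpt1 had 1 count in the 6 WT libraries together and 2720 in the 6 CP CML libraries, a ratio of 2920.0 with a 95% counting interval of 524 to 115377. Mcpt2 rose from 0.0638 ± 0.0749 to 92.6 ± 58.3 CPM (mean ± SD, n = 6). Tph1 was at 0.0819, 0.152 and 0.535 CPM in WT and at 58.3, 119.7 and 205 CPM in CP CML LSKs (lowest, median and highest), a log2 fold change of 9.14 ± 0.71, adjusted p = 2.43e-09 by edgeR. Mrgprb2 rose from 0.351 ± 0.314 to 48.7 ± 16.5 CPM, by 7.08 ± 0.57 on the log2 scale, and by 7.68 without WT replicate 1.

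The other leading genes that rose were Smpx, Akr1c18, Erv3, Smoc2, Ccl2 and Frmpd1. Smpx, a small muscle protein gene, and Akr1c18, a steroid reductase gene, had 0 counts in every WT library. Against a floor of 3 counts in each WT library they were at least 19.5-fold and 17.9-fold higher in CP CML LSKs. Erv3, an endogenous retroviral gene, and Smoc2, a matricellular protein gene, had 2 counts each in the WT libraries together. Their ratios of CP CML to WT were 336 (95% counting interval 92.6 to 2781) and 247 (68 to 2045). Ccl2, the monocyte chemokine, rose from 0, 0.19 and 0.532 CPM in WT to 13.6, 18.3 and 26.8 CPM in CP CML LSKs, by 6.37 ± 0.39, adjusted p = 8.42e-11 on the log2 scale by edgeR.

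The chymases lie side by side in the genome. In the files' mm10 coordinates, Cma1 (chr14:55941451-55944675) and Gzmb (chr14:56258858-56262260) bound a stretch of chromosome 14 with 18 genes in the files. Of these, 8 were called and all 8 rose: Cma1, Mcpt-ps1, Cma2, Mcpt1, Mcpt2, Mcpt4, Ctsg and Gzmb. Mcpt8, inside the same stretch at chr14:56082164-56085197, was the other tested gene and was not called. The granzyme genes Gzme, Gzmg, Gzmn and Gzmf in it had 0 CPM in both groups. Tpsab1 (chr17:25343245-25345562) and Tpsb2 (chr17:25366333-25368092) are neighbours on chromosome 17. The chymases and the tryptases are families of close paralogs, so counts of single members are uncertain where reads could map to several of them.

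Genes of primary granules, which neutrophil and monocyte precursors fill with proteases and peroxidase, rose as a group. Of 15 tested, 13 rose and none fell, also when any 1 library was left out, with a median log2 fold change of 0.96. Ms4a3, a marker of granulocyte-monocyte progenitors, was at 13.7, 34.8 and 91.6 CPM in WT and at 184, 252 and 335 CPM in CP CML LSKs, a log2 fold change of 2.58 ± 0.30, adjusted p = 7.56e-07 by edgeR. Ctsg, cathepsin G, rose by 1.97 ± 0.26, Elane, neutrophil elastase, by 1.38 ± 0.36 and Cst7, a cathepsin inhibitor, by 1.51 ± 0.16. For Elane the groups overlapped, at 35.2 to 285 CPM in WT and 208 to 480 CPM in CP CML LSKs. Mpo, myeloperoxidase, was at 1033, 1691 and 3790.4 CPM in WT and at 3150.4, 4129.7 and 5314 CPM in CP CML LSKs, so the groups overlapped, and its log2 fold change was 1.13 ± 0.28, adjusted p = 0.00216 by edgeR. Cebpa and Gfi1, transcription factors of granulocyte commitment, rose by 0.66 ± 0.15 and 0.55 ± 0.13, whereas Cebpe, which acts later, was not called (0.12 ± 0.35). Within females 10 of the list rose, and Elane (0.88, adjusted p = 0.198, edgeR) and Mpo (0.92, adjusted p = 0.0768) were not called. Within males 11 rose, and Gfi1 was not called (0.39, adjusted p = 0.135, edgeR).

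Genes of later neutrophil stages did not move one way. Of 16 tested, 6 rose and 2 fell. Their summed level was 277 to 358 CPM in WT and 263 to 357 CPM in CP CML LSKs. Lcn2, lipocalin-2 of secondary granules, rose from 0.646, 1.38 and 2.21 CPM in WT to 16.3, 36.5 and 63.4 CPM in CP CML LSKs (4.78 ± 0.42, adjusted p = 1.67e-08, edgeR), and Mmp8, neutrophil collagenase, rose from 0.624 ± 0.487 to 8.4 ± 1.61 CPM. S100a8 and S100a9, the abundant calcium-binding proteins of mature neutrophils, were at most 12.6 CPM in any of the 12 libraries and had log2 fold changes of 0.31 ± 0.49 and -0.32 ± 0.57, neither called.

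Among monocyte and dendritic cell genes, 6 of 19 rose and 5 fell; the fall was called for 3 when CP CML replicate 2, 3 or 4 was left out. Among the genes that rose, Ccr2, the receptor for CCL2, was at 10.3, 29.9 and 59.6 CPM in WT and at 217, 234 and 256 CPM in CP CML LSKs (2.83 ± 0.32, adjusted p = 6.45e-07, edgeR). F13a1, the coagulation factor XIII A chain of monocytes, rose by 2.29 ± 0.39 on the log2 scale, and Ly6c2 by 1.57 ± 0.45. Xcr1 and Clec9a, markers of cross-presenting dendritic cells, fell from 2.39 ± 2.1 to 0.21 ± 0.269 CPM and from 5.25 ± 4.61 to 0.784 ± 0.604 CPM. The log2 fold change of Xcr1, -3.46 ± 0.82, was -2.85 without WT replicate 3 and -4.47 without CP CML replicate 5. MHC class II genes, which present antigen to T cells, fell in 7 of 10 and none rose. Without WT replicate 3 or CP CML replicate 2, 3 of the MHC class II genes were called, as without the 4 macrophage-rich libraries, and without CP CML replicate 3, 4 were. H2-Ob, which with H2-Oa forms the inhibitor of peptide loading, went from a range of 99.9 to 148 CPM in WT to one of 40.6 to 87.4 CPM in CP CML LSKs, with no overlap.

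The lymphoid-primed list fell. Of 19 tested genes, 12 fell and none rose (11 to 13 fell when any 1 library was left out), and 11 did not overlap between groups. Rag1, the recombinase subunit that cuts antigen receptor genes, led all falls: it was at 11.8, 15.4 and 56.9 CPM in WT and at 0.0826, 0.978 and 2.53 CPM in CP CML LSKs, a log2 fold change of -4.40 ± 0.70, adjusted p = 3.71e-05 by edgeR. Rag2, its partner, fell from 13.7, 21.4 and 33.2 CPM to 1.53, 2.9 and 4.63 CPM in the same order (-2.95 ± 0.29). No CP CML library reached the lowest WT library for either gene. Rag1 (chr2:101638252-101649532) and Rag2 (chr2:101624748-101632528) lie next to each other on chromosome 2.

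Dntt, the polymerase that adds bases at receptor joints, was among the more abundant lymphoid transcripts, at 720.4, 920.4 and 1308 CPM in WT and 122, 226 and 355 CPM in CP CML LSKs, and fell 4.1-fold (-2.04 ± 0.31, adjusted p = 2.47e-05, edgeR). Notch1, the receptor that starts T cell commitment, fell (log2 fold change -0.87 ± 0.15) and Il7r, the receptor for IL-7 (-1.26 ± 0.30). Il12a, the p35 chain of IL-12, was at 60.3 to 97.3 CPM in WT and 26.4 to 55.2 CPM in CP CML LSKs. Flt3, the receptor that marks multipotent and lymphoid-primed progenitors, was not called (-0.32 ± 0.15, adjusted p = 0.0753, edgeR), and its groups overlapped at 758 to 1029.8 and 574 to 812 CPM. With only the 12 libraries in the fit it was called lower (-0.32, adjusted p = 0.0185, edgeR).

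Of 15 B lineage and plasma cell genes, 4 fell and 1 rose; without WT replicates 1 and 4, 2 fell. Ebf1, the transcription factor that fixes B cell identity, fell from 1.88, 3.16 and 8.67 CPM in WT to 0.0826, 0.345 and 0.416 CPM in CP CML LSKs (-3.61 ± 0.61, adjusted p = 6.34e-05, edgeR). Blk, a Src family kinase of B cells, fell (log2 fold change -3.57 ± 0.70). Sdc1, syndecan-1 of plasma cells, fell (log2 fold change -1.65 ± 0.31), whereas Xbp1, a factor of secretory cells and of the unfolded protein response, rose by 0.69 ± 0.14. Jchain, which joins immunoglobulin polymers, ranged from 32.3 to 909 CPM among WT and 135 to 694 CPM among CP CML libraries and was not called (-0.35 ± 0.60). Of 16 T and NK cell genes, 5 fell, among them Lck, the kinase of the T cell receptor, by -0.92 ± 0.15; that count was 2 without CP CML replicate 2 or 3, and 3 without WT replicate 2 or CP CML replicate 4 or 6, or the macrophage-rich libraries.

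Erythroid genes had the lowest median log2 fold change of the lists described here. Of 19 tested, 17 fell and none rose, their median log2 fold change being -1.76. Without overlap between groups, 11 were lower and 1, Tfrc, which was not called, was higher. Klf1, the transcription factor that switches on erythroid genes, was at 4.09, 7.11 and 9.21 CPM in WT and at 0.725, 1.03 and 2.45 CPM in CP CML LSKs (-2.41 ± 0.44, adjusted p = 0.000163, edgeR). This level was low in both groups, and the CP CML libraries all lay below the WT libraries.

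Aqp1, the red cell water channel, was at 32, 45.2 and 65.1 CPM in WT and 9.38, 11.5 and 17.4 CPM in CP CML LSKs, and fell 3.91-fold (log2 -1.97 ± 0.29, adjusted p = 1.79e-05, edgeR). Car1, carbonic anhydrase 1, fell (log2 fold change -2.20 ± 0.54), Ermap, a red cell surface protein (-2.62 ± 0.51), and Epor, the erythropoietin receptor (-1.32 ± 0.27). Pklr, the red cell pyruvate kinase, and Slc38a5, an amino acid transporter, were also among the 15 leading falls, at -2.58 ± 0.52 and -2.71 ± 0.62. Tfrc, the transferrin receptor, did not pass the test (0.37 ± 0.16, adjusted p = 0.0552), although its groups did not overlap at 146 to 230.0 CPM in WT and 242 to 275 CPM in CP CML LSKs. It was called higher by the likelihood ratio test (adjusted p = 0.0439), by DESeq2 (adjusted p = 0.0402), by edgeR with a filter of 1 CPM (adjusted p = 0.0464), with only the 12 libraries (adjusted p = 0.00631) and without WT replicate 3 (0.43, adjusted p = 0.0357). Within males, 5 erythroid genes fell, and within females 18 did, with median log2 fold changes of -0.97 and -2.47. Of the marrow macrophage genes, 12 of 15 fell within females (median log2 fold change -2.68), and 8 rose within males (2.10). Among females their summed level was 1919 CPM in WT replicate 3, and 378 and 174 CPM in WT replicates 1 and 2. It was 151 to 188 CPM in the CP CML females, so the fall within females leaned on 1 library. Without the 4 macrophage-rich libraries, which leaves no CP CML male, 15 erythroid genes fell and 0 rose. Without WT replicates 1 and 4, 16 fell. The part of the macrophage genes in the erythroid result was otherwise not tested. A difference between the sexes was not called for any gene by the quasi-likelihood test.

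Megakaryocyte and platelet genes split, with 4 of 22 higher and 8 lower; the lower count was 5 without WT replicate 2 or CP CML replicate 1, 4 without CP CML replicate 3, and 3 without the macrophage-rich libraries. Itga2b, which encodes CD41, rose from a range of 101 to 150.1 CPM in WT to one of 188 to 271 CPM in CP CML LSKs. Gp1ba, a chain of the von Willebrand factor receptor, rose by 1.29 ± 0.21 and Rab27b, a GTPase of granule release, by 1.35 ± 0.25. Nfe2, the transcription factor of platelet formation, fell (log2 fold change -0.39 ± 0.08, edgeR adjusted p = 0.000349).

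**Figure D2:**
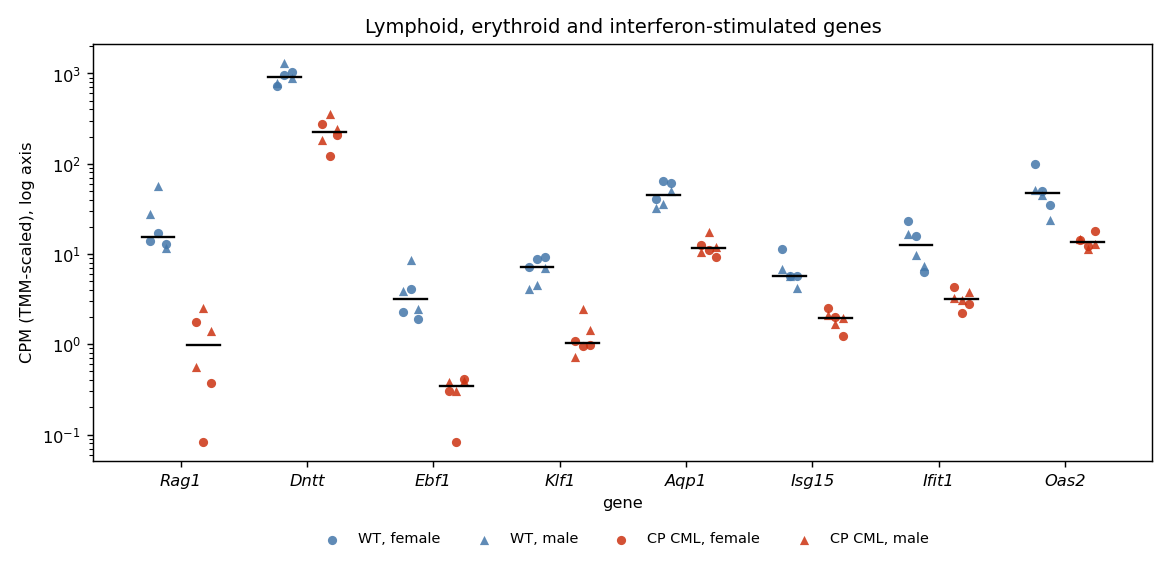
Level of 8 lymphoid, erythroid and interferon-stimulated genes in each library, in TMM-scaled CPM on a log axis. Blue marks are WT and red marks CP CML LSKs, circles are females, triangles males and bars the median of 6. For all 8 genes every CP CML library lay below every WT library, with the Rag1 median at 15.4 CPM in WT and 0.978 CPM in CP CML LSKs.

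Interferon-stimulated genes fell. Of 38 tested, 31 fell and 1 rose, their median log2 fold change being -0.91, and 29 of them were lower with no overlap between groups. When any 1 library was left out, 26 to 31 fell. The count was 19 without WT replicates 1 and 4 and 20 without the 4 macrophage-rich libraries. Within females 23 fell and within males 7, with the median between -0.98 and -0.75 in the fits that left out 1 library and in those within 1 sex.

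Isg15, a ubiquitin-like modifier, was at 4.24, 5.74 and 11.5 CPM in WT and at 1.25, 1.98 and 2.55 CPM in CP CML LSKs (-1.79 ± 0.45, adjusted p = 0.00272, edgeR). Ifit1, which binds viral RNA caps, was at 6.38, 12.7 and 23.5 CPM in WT and 2.23, 3.19 and 4.31 CPM in CP CML LSKs (-2.03 ± 0.56, adjusted p = 0.00543). Oas2, an RNA-sensing oligoadenylate synthetase, fell 3.64-fold and Ifi44 4.48-fold, to 11.4 to 17.9 and 6.81 to 11.2 CPM in CP CML LSKs. Irf9, a subunit of the transcription factor complex that drives the response, fell from a range of 79.1 to 108 CPM in WT to one of 51.6 to 61.4 CPM in CP CML LSKs (-0.75 ± 0.20, adjusted p = 0.00335, edgeR). Gbp6, an interferon-inducible GTPase, was among the 15 leading falls at -3.84 ± 0.76. Gbp3, of the same family, was the member that rose (0.34 ± 0.11, adjusted p = 0.0127, edgeR), and it was not called without WT replicates 1 and 4 (0.24, adjusted p = 0.0979).

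The promoters of these genes were searched for the interferon response motif, 2 copies of TTTC separated by any 2 bases, which the interferon-activated factor complex binds, on both strands. In RefSeq promoter windows of GRCm38.p6 (250 bases before to 50 after each start), it occurred in 16 of the 26 interferon-stimulated genes with a promoter in the table, beside 3.86% of tested genes and 3.44% of all 32851 promoters. Of those 16, 12 fell and 1 rose, and of the 10 without the motif, 8 fell. For 3 genes that fell and for Gbp3, 1 match each is shown, of 3 overlapping matches in Isg15 and 2 in each of the other genes, with the motif in capitals on either strand, 5′ to 3′ on the gene's strand.
Isg15, chr4:156200871-156200900, - strand: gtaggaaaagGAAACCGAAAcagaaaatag
Ifit1, chr19:34640775-34640804, + strand: caggcttcagTTTCACTTTCcagtctcagt
Oas1a, chr5:120907526-120907555, - strand: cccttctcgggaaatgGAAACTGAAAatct
Gbp3, chr3:142559989-142560018, + strand: caggacacagTTTCAGTTTCtatttcccag
Gbp3, which rose, held the motif as the genes that fell did. For the erythroid list, the GATA motif AGATAA occurred in 5 of 14 promoters beside 8.09% of tested genes and 11.2% of all promoters, and 4 of those 5 genes fell, as did 8 of the 9 without it. The matches in the promoters of Epor and Rhd, the latter a blood group antigen with a log2 fold change of -2.26 ± 0.52, read as follows.
Epor, chr9:21963613-21963642, - strand: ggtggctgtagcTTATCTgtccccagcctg
Rhd, chr4:134864481-134864510, + strand: cccggcagcctgAGATAAgacctttggcgg
The C/EBP motif TTGCGCAA was in none of 12 primary granule promoters, beside 0.325% of tested genes and 0.183% of all promoters. These matches are a description of the letters in each window.

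**Figure D3:**
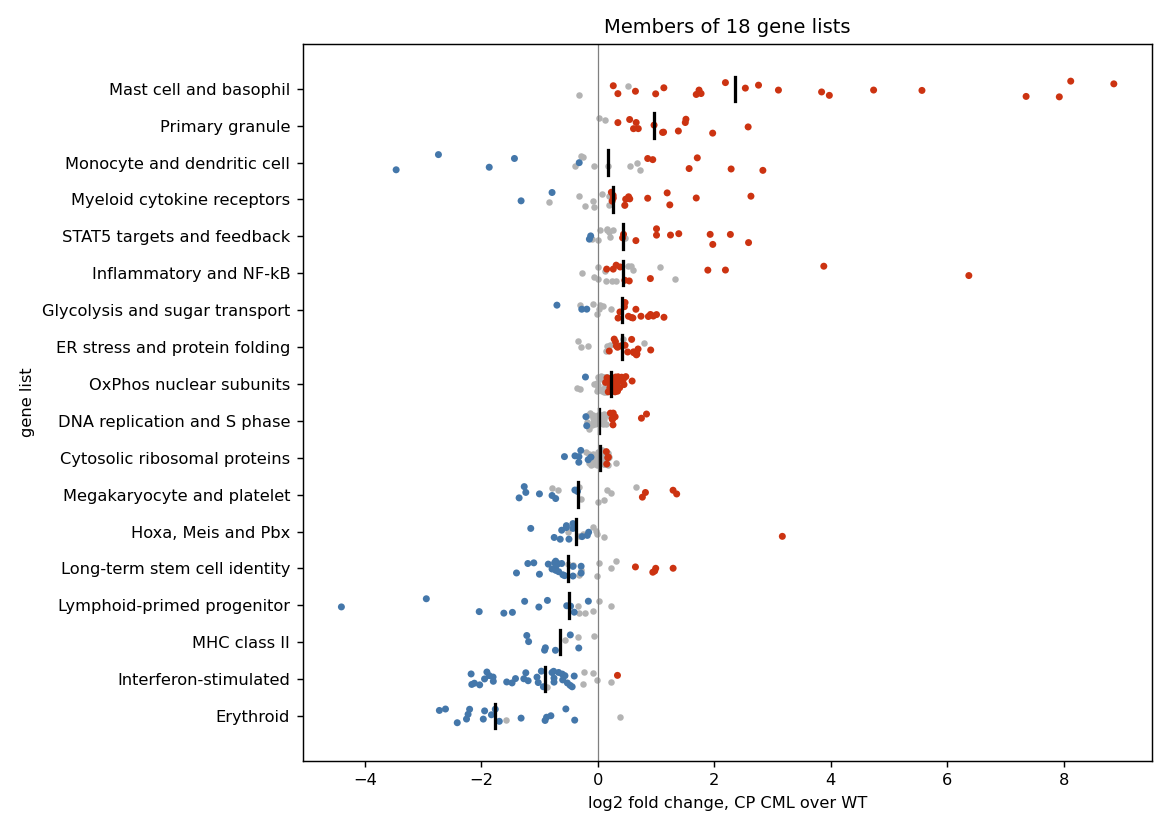
Log2 fold change, CP CML over WT, of the tested members of 18 gene lists. Each point is a gene, red where it rose and blue where it fell at an adjusted p below 0.05, grey where it did not pass, and the black bar is the list's median, from 2.36 for mast cell and basophil genes to -1.76 for erythroid genes.

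BCR-ABL activates the transcription factor STAT5. Of a list of 22 genes of STAT5, its targets and its feedback inhibitors, 11 rose and 2 fell, with a median log2 fold change of 0.43. The 2 that fell were Stat5a and Stat5b, which encode STAT5 itself, and 0 to 2 fell when any 1 library was left out. Socs2, a feedback inhibitor of cytokine signalling, was at 5.61, 8.24 and 13.7 CPM in WT and at 21.8, 35.1 and 47.7 CPM in CP CML LSKs (1.97 ± 0.26, adjusted p = 4.49e-06, edgeR). Socs3, which acts on gp130 receptors, rose from 28.7 ± 13.1 to 139 ± 36.4 CPM (mean ± SD, n = 6; 2.27 ± 0.39, adjusted p = 7.96e-05, edgeR). Both genes separated all libraries by group. Id2, an inhibitor of E proteins, rose by 1.93 ± 0.35, Socs1 by 1.01 ± 0.26 and Pim2, a survival kinase, by 0.65 ± 0.14 on the log2 scale. Il2ra, the alpha chain of the IL-2 receptor, rose by 2.59 ± 0.60, and by 3.51 without WT replicate 2, the WT library with the most, at 7.22 CPM. Cish, another STAT5-induced inhibitor, Bcl2l1 and Myc did not pass the test, at 0.47 ± 0.22, 0.04 ± 0.06 and 0.20 ± 0.11, although Myc was called without the macrophage-rich libraries (0.38, adjusted p = 0.0366, edgeR) and Cish with only the 12 libraries (0.47, adjusted p = 0.0282, edgeR) and within females (0.74, adjusted p = 0.0268, edgeR).

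The STAT motif TTCNNNGAA was in 3 of 16 promoters of this list, beside 8.39% of tested genes and 8.3% of all promoters. Of those 3 genes, 2 rose and 0 fell, and of the genes without the motif, 6 rose and 2 fell. Bcl6, a member with matches that are not shown, rose by 0.44 on the log2 scale. The match upstream of Socs3, in capitals, is shown because Socs3 was one of the genes that separated the groups.
Socs3, chr11:117969501-117969530, - strand: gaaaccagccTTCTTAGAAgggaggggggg
Among BCR-ABL adaptors and Src family kinases, 2 of 21 rose and 5 fell. Gab2, the scaffold that links BCR-ABL to PI3K and RAS, rose from a range of 56.6 to 82.4 CPM in WT to one of 105 to 127 CPM in CP CML LSKs (0.77 ± 0.08, adjusted p = 1.84e-07, edgeR). Dok2, an inhibitory adaptor, fell (log2 fold change -0.74 ± 0.13), Fyn (-0.44 ± 0.06) and Crkl, a main substrate of BCR-ABL (-0.23 ± 0.04). Of the genes that ERK induces as feedback, 4 of 16 rose, near the 22.5% higher among all genes, and 1 rose without the 4 macrophage-rich libraries. The largest of these rises was in Etv4 (2.20 ± 0.55), which was at most 0.345 CPM in WT and 1.14 CPM in CP CML LSKs. Dusp6 was not called (-0.13 ± 0.17). Of immediate early genes 4 of 21 rose, also near the 22.5% of all genes. The count was 8 without WT replicate 5 or CP CML replicate 1, and 7 without CP CML replicate 2. It was 2 without WT replicates 1 and 4 or without the macrophage-rich libraries. The summed level of immediate early genes ran from 1841 to 8105 CPM in WT and from 5862 to 12350.3 CPM in CP CML LSKs. It was lowest in WT replicates 1 and 4.

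Receptors for myeloid cytokines rose in 13 of 24 and fell in 2. Csf2rb, the shared beta chain for IL-3, GM-CSF and IL-5, was at 78.3, 95.2 and 147 CPM in WT and at 257, 330.0 and 382 CPM in CP CML LSKs (1.69 ± 0.19, adjusted p = 3.85e-07, edgeR). Csf2rb2, the beta chain specific to IL-3, rose 6.18-fold, from a range of 16.8 to 39 CPM in WT to one of 102 to 235 CPM in CP CML LSKs. These 2 genes are close paralogs, so how reads divide between them is uncertain. Il4ra, the IL-4 receptor, rose by 1.19 ± 0.15 and Lifr, the LIF receptor, by 1.24 ± 0.20 on the log2 scale.

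Of 18 genes of the LSK gate and its subsets, 4 rose and 5 fell, and of 19 genes of surface markers of CML stem cells, 6 rose and 3 fell. These shares lay near the 45.4% called among all genes. Fcgr2b, the inhibitory Fc receptor, was at 17.7, 25.8 and 38.7 CPM in WT and at 69.2, 82.9 and 88.9 CPM in CP CML LSKs (1.66 ± 0.14, adjusted p = 1.01e-08, edgeR). Il1rap, the IL-1 receptor accessory protein that marks human CML stem cells, was higher by 0.23 ± 0.06, with WT at 27.1 to 32.1 CPM and CP CML at 32.6 to 38.4 CPM, and was not called without the macrophage-rich libraries (0.17, adjusted p = 0.074). Dpp4, which encodes CD26, was not called (-0.14 ± 0.12), and Cd93 fell (log2 fold change -0.63 ± 0.10). Cd34 fell from a range of 1101 to 1236 CPM in WT to one of 909 to 957 CPM in CP CML LSKs (-0.31 ± 0.05, adjusted p = 5.98e-05). Kit was called at 0.24 ± 0.09, adjusted p = 0.0379 by edgeR. That call was lost without any 1 of WT replicates 2, 3, 5 and 6 or CP CML replicates 1, 2 and 6. It was also lost without the 4 macrophage-rich libraries, and these fits gave log2 fold changes of 0.21 to 0.25. The Kit call was lost as well under upper quartile normalization (0.20, adjusted p = 0.0848, edgeR), without a filter on low counts (adjusted p = 0.0535) and within males (0.10, adjusted p = 0.557).

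Genes that mark long-term stem cells fell in 20 of 33 and rose in 5, with a median log2 fold change of -0.52. When any 1 library was left out, 15 to 21 fell, and without WT replicates 1 and 4, 13 did. Cd27, a TNF receptor of stem and lymphoid cells, was at 167, 190.0 and 206 CPM in WT and at 116, 122 and 146 CPM in CP CML LSKs (-0.57 ± 0.07, adjusted p = 1.91e-06, edgeR). Slamf1, which encodes CD150, fell from a range of 6.45 to 9.58 CPM in WT to one of 3.03 to 5.66 CPM in CP CML LSKs (-0.85 ± 0.15). Mecom and Hlf, transcription factors of self-renewal, fell (log2 fold changes -0.62 ± 0.13 and -0.72 ± 0.17), as did Tek, the angiopoietin receptor (-0.74 ± 0.17). Gata2 and Ifitm1 were among the 5 that rose, Ifitm1, a membrane protein, from a range of 85.6 to 134 CPM in WT to one of 203 to 357 CPM in CP CML LSKs.

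Of the Hox, Meis and Pbx genes, which encode homeodomain factors of stem cells, 12 of 20 fell and 1 rose, with 10 to 13 falling when any 1 library was left out. Hoxa10 fell (log2 fold change -0.75 ± 0.12), Hoxa9 (-0.54 ± 0.11) and Meis1 (-0.43 ± 0.08). Meis2 was the member that rose, from 0.106 ± 0.0873 to 1.01 ± 0.425 CPM (mean ± SD, n = 6; 3.17 ± 0.41, adjusted p = 3.8e-06, edgeR). Of imprinted genes expressed in stem cells, 6 of 12 fell and 1 rose. Igf2r, the receptor that clears IGF2, was at 40.4, 83.2 and 91 CPM in WT and at 17.4, 19.3 and 22.4 CPM in CP CML LSKs (-1.97 ± 0.26, adjusted p = 4.93e-06), and Grb10, an inhibitor of insulin and IGF signalling, fell (log2 fold change -1.31 ± 0.17). Of Polycomb and DNA methylation genes, 11 of 25 fell and 2 rose. The fall was called for 7 without CP CML replicate 2, 3 or 4, without WT replicates 1 and 4, and without the macrophage-rich libraries. Kmt2a, the MLL histone methyltransferase, fell (log2 fold change -0.45 ± 0.08), Dnmt3a (-0.27 ± 0.04), and Tet2 rose by 0.36 ± 0.08.

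Cell cycle genes had median log2 fold changes near 0. Of 38 DNA replication genes, 8 rose and 2 fell, and their median log2 fold change was 0.03; 5 rose without WT replicates 1 and 4. Rrm2, the ribonucleotide reductase subunit, rose from a range of 92.6 to 124 CPM in WT to one of 157 to 217 CPM in CP CML LSKs (0.75 ± 0.13, adjusted p = 7.94e-05, edgeR) and Ccne1, cyclin E1, by 0.84 ± 0.16. Mki67 was at 1286 to 1697 CPM in WT and 1258 to 1603 CPM in CP CML LSKs and was not called (-0.08 ± 0.08), nor was Pcna (-0.06 ± 0.06). Of 34 mitosis genes, 9 rose and 3 fell, a count that moved to 1 and 12 without WT replicates 1 and 4; the rise was called for 3 without WT replicate 1 and for 5 without WT replicate 4 or CP CML replicate 2.

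Of the CDK inhibitors, Cdkn2a, which encodes p16INK4A and p19ARF, had 1 count in the WT libraries together and 154 in the CP CML libraries, a ratio of 165 (95% counting interval 29.2 to 6572). It was at 0.6, 0.798 and 4 CPM in CP CML LSKs (lowest, median and highest), and its highest library was CP CML replicate 1, without which the fitted log2 fold change went from 6.66 to 5.95. Its neighbour Cdkn2b had 1 and 45 counts, a ratio of 48.3 (8.24 to 1950.0). The single WT counts were in WT replicate 1 for Cdkn2a and WT replicate 3 for Cdkn2b, and both genes were above every WT library in every CP CML library. Cdkn1b, which encodes p27, fell (log2 fold change -0.44 ± 0.11). In the BCL2 family 6 of 15 rose and 2 fell. Pmaip1, which encodes the death promoter NOXA, was at 1.29, 7.76 and 13.1 CPM in WT and 19.6, 25.8 and 33.8 CPM in CP CML LSKs (1.94 ± 0.41, adjusted p = 0.000641, edgeR). Bak1, a pore-forming death effector, rose by 0.59 ± 0.08 and Bcl2, the survival factor, fell (log2 fold change -0.40 ± 0.10).

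Metabolic genes rose by smaller amounts. Of 24 glycolysis and sugar transport genes, 14 rose and 3 fell, their median log2 fold change being 0.42, and 14 or 15 rose when any 1 library was left out. Ldha, which makes lactate, was at 313, 346 and 388 CPM in WT and at 539, 677 and 723 CPM in CP CML LSKs (0.90 ± 0.13, adjusted p = 7.39e-06, edgeR). Pfkp, a phosphofructokinase, rose by 0.95 ± 0.09, Hk2, hexokinase 2, by 0.60 ± 0.09 and Slc16a1, the lactate transporter MCT1, by 0.87 ± 0.14. Ldhb, the other lactate dehydrogenase subunit, fell (log2 fold change -0.70 ± 0.16). Of 75 nuclear genes of the respiratory chain and ATP synthase, 45 rose and 1 fell, with a median log2 fold change of 0.22; 27 rose without WT replicates 1 and 4. Atp5b, the catalytic subunit of ATP synthase, was at 868 to 1003 CPM in WT and 1060.4 to 1309 CPM in CP CML LSKs (0.38 ± 0.07, adjusted p = 0.000211).

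Fatty acid oxidation and carnitine genes moved both ways, 8 up and 6 down of 28, a share near the 45.4% called among all genes. The falls were called for 3 without CP CML replicate 2 or 5, or the macrophage-rich libraries, and for 2 without WT replicates 1 and 4. Cpt1a, the gate of mitochondrial fatty acid import, was at 220.3, 294 and 298 CPM in WT and 304, 374 and 441 CPM in CP CML LSKs (0.40 ± 0.08, adjusted p = 0.000602, edgeR). The lowest WT value of Cpt1a was that of replicate 1, the other WT libraries being at 284 to 298 CPM. Within males Cpt1a was not called (0.18, adjusted p = 0.221, edgeR). Genes of protein folding in the endoplasmic reticulum rose in 16 of 24 and none fell. Calr, calreticulin, rose by 0.61 ± 0.10, Sdf2l1, a chaperone cofactor, by 0.91 ± 0.16 and Hspa5, the chaperone BiP, by 0.61 ± 0.14. Among NADPH oxidase and antioxidant genes, 12 of 27 rose and 5 fell, 3 of the falls being called without WT replicate 4 or CP CML replicate 2 or 5. Gsr, glutathione reductase, rose by 1.22 ± 0.14, Slc7a11, the cystine importer, by 2.50 ± 0.29, and Nqo1, a quinone reductase, fell (log2 fold change -1.25 ± 0.15). Of 59 cytosolic ribosomal protein genes 4 rose and 7 fell, and these counts moved between 1 and 9 for rises and between 4 and 7 for falls in the fits without 1 library or without the libraries named above.

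Of the inflammatory and NF-kB genes, 11 of 24 rose and none fell, with a median log2 fold change of 0.42; 7 rose without WT replicates 1 and 4. Beside Ccl2, Il1b, the IL-1 beta gene, rose from 0.332 ± 0.25 to 4.99 ± 2.6 CPM (mean ± SD, n = 6; 3.88 ± 0.53, adjusted p = 5.72e-06, edgeR). Il6, a cytokine that mast cells and myeloid cells also make, was at 0.129, 2.54 and 3.43 CPM in WT and 6.52, 9.43 and 11.7 CPM in CP CML LSKs (2.19 ± 0.61, adjusted p = 0.00549). Of the leukotriene and prostaglandin genes, 6 of 18 rose and 2 fell, a share near the 45.4% called among all genes. Pla2g7, which degrades platelet-activating factor, rose by 4.20 ± 0.54, and by 5.27 without WT replicate 3, which held 8.92 CPM. Hpgds, the prostaglandin D2 synthase of mast cells, rose by 1.64 ± 0.27.

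The effect of BCR-ABL in mice without miR-142 was measured by BC CML against miR-142 KO LSKs, groups that share no library with the comparison above. Of the 930 genes with a called change of at least 2-fold in CP CML LSKs, 865 had the same sign there. Of all 6143 called genes, 5561 did. The difference between the 2 effects was tested in the same fit and was called for 539 genes (3.99%). With the sign kept, 281 of them had the higher log2 fold change with miR-142 present and 258 the lower. Of the 539, 382 were also called between CP CML and WT LSKs. For the mast cell chymase the difference was not called: the log2 fold change of Cma1 was 7.92 ± 0.47 with miR-142 and 8.99 ± 0.48 without it (difference -1.07 ± 0.57, adjusted p = 0.313, edgeR), which does not show that the effects were equal.

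The smallest p-values of that difference belonged to Ptprv, Ptprg, Arl3, Ctse, Homer2, Lxn, Atp8a2 and Ank. Ctse, cathepsin E, rose from 65.2 ± 11.4 CPM in WT to 237 ± 8.95 CPM in CP CML LSKs, and was at 34.1 ± 9.31 CPM in miR-142 KO and 31.4 ± 3.78 CPM in BC CML LSKs (mean ± SD, n = 6; difference of log2 fold changes 1.98 ± 0.19, edgeR adjusted p = 6.56e-07). Ptprv, a receptor phosphatase gene, rose with miR-142 (1.05 ± 0.07) and fell without it (-0.41 ± 0.08), a difference of 1.46 ± 0.11. Homer2, a scaffold protein, differed by 2.22 ± 0.26 and Atp8a2, a lipid flippase, by 1.49 ± 0.18. Arl3, a small GTPase of the cilium, fell with miR-142 (-0.94 ± 0.07) and was at 0.06 ± 0.07 without it. Ptprg, another receptor phosphatase, was called only in the comparison without miR-142 (6.16 ± 0.35, against 0.57 ± 0.38 with it), and the difference was -5.59 ± 0.53 (edgeR adjusted p = 6.56e-07).

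Among genes described above, Tph1 rose by 9.14 ± 0.71 with miR-142 and by 3.10 ± 0.43 without it, a difference of 6.04 ± 0.89 (edgeR adjusted p = 0.000372). Its level differed already without BCR-ABL, at 0.222 ± 0.178 CPM in WT and 29.5 ± 25.3 CPM in miR-142 KO LSKs, and it was at 253 ± 64.4 CPM in BC CML LSKs. Il1rl1 differed by 2.27 ± 0.45 and Fcgr2b by 0.83 ± 0.20, both more strongly raised with miR-142 present. Rag2 fell more with miR-142 present (-2.95 ± 0.29 against -0.95 ± 0.27, edgeR adjusted p of the difference 0.00512), and it was at 7.33 ± 2.48 CPM in miR-142 KO against 21.7 ± 6.49 CPM in WT LSKs. These 4 differences were called in each of the 21 alternative fits of the difference. Car1, an erythroid gene, fell less with miR-142 present, by a difference of 3.83 ± 0.88, and the call was lost without the macrophage-rich libraries.

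**Figure D4:**
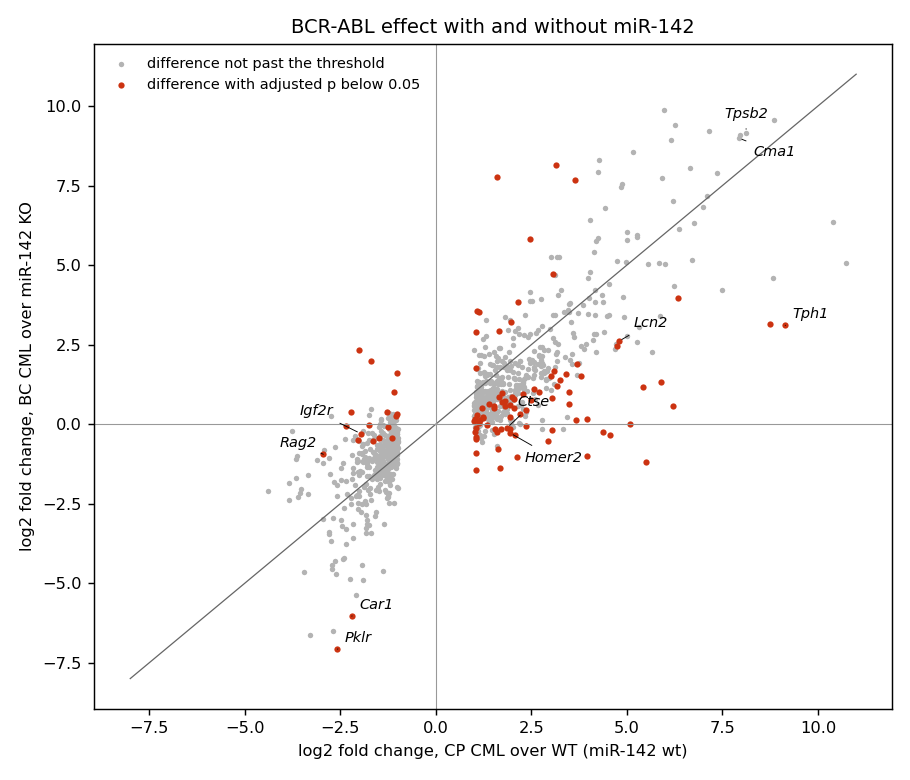
Log2 fold change of CP CML over WT (x axis) against that of BC CML over miR-142 KO (y axis) for the 930 genes called with a change of at least 2-fold on the x axis, which chose them. Red points are genes whose 2 effects differed at an adjusted p below 0.05, and the diagonal marks equal effects. Cma1 and Tpsb2 lay above the diagonal without a called difference, and Ctse, Homer2 and Tph1 below it.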

How the data were processed

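Bulk mRNA libraries of LSKs from 12 mice, 6 CP CML and 6 WT, were compared, and the 12 libraries of the other genotypes entered the same fit. Per the submitters' processing notes and the study's methods, the authors trimmed reads with Trimmomatic, aligned them to mm10 with STAR 2.6.0 and counted reads per gene with HTSeq 0.11.1; the deposited values are raw counts, not normalized. The annotation, the strand setting and the library batches are not given in the sources used here. Without a stated strand setting, reads of overlapping genes cannot be told apart. A deposited column of gene lengths was not used.

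Groups and sexes were taken from the labels. Of 24091 genes, 13520 passed edgeR's filterByExpr. TMM normalization and edgeR's quasi-likelihood test (edgeR 4.0.16, limma 3.58.1, R 4.3.3) were applied to all 24 libraries in 1 fit, with Benjamini-Hochberg adjustment over all genes tested and a threshold of 0.05. Adjusted p-values in the text are from this test unless another is named. They measure the spread between mice. With counts of 1 to 3 in WT, ratios are given with exact 95% intervals, which, like the floor of 3 counts, cover counting error only. DESeq2 1.42.0, the likelihood ratio test, other normalizations, filters and subsets of libraries were alternatives; those that leave out WT replicates 1 and 4, or WT replicate 3 and CP CML replicates 4 to 6, were chosen after seeing the data. On simulated counts for this comparison, over 13520 genes, the test called 92 of 100 genes changed by 1 and 98 of 100 changed by 2 on the log2 scale, and 8 of 13214 unchanged genes. Those changes were equally up and down, and the simulated libraries held no shifts shared by many genes. In the data 45.4% of genes were called, so the simulation does not test the assumption of TMM or such shifts.

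The libraries compared and the gene lists were chosen with earlier results of these data known. Genes were named if they were the transgene's or sort's own genes, the 15 largest changes in each direction without overlap and with a mean of at least 1 CPM, the 5 of smallest p in a list, or textbook members of a list, and the 8 of smallest p for the difference with miR-142. Promoter sequences came from RefSeq, GRCm38.p6. Some genes are not reported here.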

Additional observations from a re-analysis of the deposited data

Results flagged for a closer look

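In 19 of 340 groups of 6 values, 1 library lay far from the others of its group by Dixon's ratio, where chance gives about 1 in 20. Of these, 7 were WT groups with counts in 1 library alone: the highest values were 0.451 CPM for Mcpt-ps1, 0.0821 CPM for Erv3 and 0.041 CPM for both Cdkn2a and Cma2 in WT replicate 1, 0.0419 CPM for Mcpt1 in WT replicate 5, and 0.0819 CPM for Smoc2 and 0.0409 CPM for Cdkn2b in WT replicate 3. Cdkn2a was also high in CP CML replicate 1, at 4.0 CPM. Among the other WT values, Bcr (126 CPM) and Igf2r (40.4 CPM) were low in replicate 6, Ifitm1 (85.6 CPM) in replicate 2, Cpt1a (220.0 CPM) in replicate 1 and Hspa5 (498 CPM) in replicate 4, while Mir142 (5.32 CPM) was high in replicate 5. Among the CP CML values, Tal1 (123 CPM) was low in replicate 4, Ebf1 (0.0826 CPM) in replicate 2 and Ldhb (12.9 CPM) in replicate 1, while Xcr1 (0.743 CPM) was high in replicate 5 and Slc7a11 (6.69 CPM) in replicate 2.

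For 29 of 170 genes described, the BCR-ABL effect with miR-142 present differed from that in miR-142 KO mice by edgeR's quasi-likelihood test. Over all 13520 genes tested, the share was 3.99%. The 170 genes include the 8 named for the smallest p of this same difference and others named for large changes. Their count is therefore raised by that choice and cannot be compared with the share over all genes. Larger and smaller are meant here with the sign. A gene that fell more with miR-142, such as Rag2, is under smaller, and Car1, which fell less with it, under larger. The log2 fold change was larger with miR-142 for Tph1 (6.04), Car1 (3.83), S100a9 (3.01), Frmpd1 (2.39), Il1rl1 (2.27), Homer2 (2.22), Lcn2 (2.18), Ctse (1.98), Atp8a2 (1.49), Ptprv (1.46), Ms4a3 (1.46), Lifr (1.03), Ank (0.88), Itga2b (0.85), Fcgr2b (0.83), Mitf (0.77), Gsr (0.71), Gata2 (0.64) and Cpt1a (0.45), where the value is the difference of the 2 log2 fold changes. It was smaller with miR-142 for Ptprg (-5.59), Rag2 (-1.996), Igf2r (-1.67), Dntt (-1.53), Arl3 (-1.0003), Lxn (-0.95), Hoxa9 (-0.56) and Bcr (-0.40). It was also larger for Akr1c18 (5.59) and Pklr (4.50), but Akr1c18 had 0 counts in every WT library and Pklr was at 0.0239 ± 0.0414 CPM in BC CML LSKs (SD, n = 6), so these fitted differences depend on the prior count and are no measured sizes.

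Many of these calls rested on the fit. Of 21 alternative fits of the difference, the call was lost in 13 for Dntt, 10 for Bcr, 9 for Hoxa9, 8 for Lifr, 7 for Ms4a3 and 5 for both S100a9 and Gsr. It was lost in 2 for Pklr, Frmpd1 and Cpt1a and in 1 for Mitf, Gata2, Lcn2, Car1, Itga2b and Igf2r, and the other 13 were called in each of them.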

How the results depend on the processing

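The 6143 genes called between CP CML and WT LSKs became 930 with a log2 fold change of at least 1, 3930 within females and 3484 within males, and ranged from 5348 to 6250 when 1 library was left out. Under the other alternatives, the added ones included, the count was 4804 to 6452. The difference with miR-142, called for 539 genes, was called for 895 by DESeq2, 168 with an absolute difference of at least 1, and 389 to 787 without 1 library. The difference between the sexes, called for 0 genes, was called for 67 by the likelihood ratio test and 64 by DESeq2, and for 0 to 71 without 1 library. Over 4074 values of the CP CML against WT contrast for the 170 genes described under all alternatives, 4017 kept their direction and side of the threshold, 48 lost the call and 9 gained one, with 0 reversed; 26 of the losses were within males and 8 within females, where each group holds 3 mice. The cause of these losses was not tested. Many of the 170 genes were named for large changes or small p in these same data, and all alternatives reuse libraries of the main fit. The tally therefore describes the named genes and does not stand for all 6143 called genes. The sex covariate was not run for the difference between the sexes, nor the fit of only the 12 libraries for the difference with miR-142. No paired analysis was possible because the labels link no CP CML mouse to a WT mouse. Depth limits the genes with 0 to 3 WT counts, such as Mcpt1, Smoc2 and Cdkn2a, whose fitted fold changes moved by over 1 on the log2 scale without the 1 WT library that holds a count.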

Other observations

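Some gene families outside the lists were chosen after their values were seen. Their counts stand beside 45.4% of all tested genes called, 22.5% higher and 22.9% lower in CP CML LSKs. Of 7 tested Mas-related receptor genes, to which Mrgprb2 belongs, 6 rose and 1 fell. Of 8 Gimap genes, GTPases of lymphocytes, 6 fell and none rose, with a median log2 fold change of -0.90, and Gimap1 went from 33.3 to 61.7 CPM in WT to 21.8 to 29 CPM in CP CML LSKs (-0.91 ± 0.13, adjusted p = 1.05e-05, edgeR). Of 10 genes of the interferon-inducible Ifi200 family, 5 fell and none rose. Of 6 Lilr and Pirb genes, receptors of myeloid cells, 3 rose and none fell, led by Lilrb4a, which went from 0.657 to 6.55 to 57.4 to 113 CPM. For the Ifi200 family and for the Lilr and Pirb genes, the share called lay near the 45.4% of all genes. Members of these families are close paralogs, so their single counts are uncertain. Other families looked at moved both ways. Of 7 Schlafen genes, 2 rose and 3 fell, of 7 Serpinb genes, 2 rose and 2 fell, and of 18 C-type lectin genes, 6 rose and 2 fell.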
